A study of Macaca fascicularis with 44 samples.

Results

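Extravillous trophoblast (EVT) cells were compared with cytotrophoblast (CTB) cells of the same library in cynomolgus monkey embryos grown in culture, over all genes. The comparison holds 387 of the 3682 cells of the series, 172 EVT and 215 CTB, from 9 of 44 libraries and 3 of 9 embryos. A library entered when it held at least 10 cells of each class in the authors' annotation. EVT cells of 2 of the authors' fine clusters were left out first: cluster 7 (196 cells, median total count 10199.5 per cell) and cluster 18 (87 cells, mesenchyme-like), which leaves 283 of 566 EVT cells over the whole series. Just inside the limit lay library 43 with 13 EVT and 11 CTB cells. Just outside lay library 42 with 13 and 9, and library 41 with 7 and 11.

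Cytotrophoblast is the epithelial layer of the placenta that divides and supplies the other trophoblast types. Extravillous trophoblast arises from it, loses contact with its epithelium, breaks down matrix, enters the maternal tissue and reaches the uterine arteries. Known features of that passage are a switch of integrins from the epithelial to the migratory kind, secreted proteases, a slowing of division and a surface that maternal immune cells tolerate.

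All embryos were wild type, made by injection of sperm into oocytes and cultured in vitro from expanded blastocysts. The assay, scChaRM-seq, takes RNA and DNA from single cells, and only the RNA was used. Extraembryonic tissue was removed at dissection, so the trophoblast cells measured are those that stayed with the dissected body. The E18 embryo (male in the annotation) gave 2 libraries with 30 EVT and 24 CTB cells, the E20 embryo (female) 6 libraries with 118 and 165, and the E24 embryo (female) 1 library with 24 and 26. Each embryo has a library code of its own in the sample labels, so day, embryo and code cannot be told apart. Sex takes another split, but E18 was the only male embryo compared, so male sex and the E18 embryo cannot be told apart either. Libraries of 1 embryo are not independent animals. P-values here measure the spread between libraries, most of them from 1 embryo.

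Summed counts per library and class ran from 2855491 to 11153092. The median total count per cell was 117554 to 394846 in EVT (median library 281934) and 127778 to 441532 in CTB (231189). It was higher in EVT in 6 of 9 libraries, a difference within the spread between libraries (exact two-sided sign-flip permutation p = 0.0859). Genes detected per cell were higher in EVT in 8 of 9 libraries, 247.6 genes on average (exact two-sided sign-flip permutation p = 0.137). No full cell name occurred in more than 1 library, the 96 well numbers were reused by design, and no 2 cells had identical counts. The E20 cells stood apart by the authors' fine clusters: 137 of its 165 CTB cells (83.0%) were in cluster 12 and 84 of its 118 EVT cells (71.2%) in cluster 19, clusters that the E18 and E24 cells compared did not enter. CTB cells of E18 and E24 were all in cluster 0, and their EVT cells in clusters 13 and 23.

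The class names were set against trophoblast markers. Of 16 EVT markers tested, 13 were higher in EVT and none in CTB, and of 15 CTB markers 11 were higher in CTB and none in EVT. Levels below are normalised counts (CPM, the counts of a class sum scaled to its total), as lowest, median and highest of the 9 libraries. The 18 EVT markers in the table summed to 13791, 18943 and 36661 CPM in EVT and to 550.2, 692.7 and 1523 in CTB. The 17 CTB markers summed to 1008, 2244 and 2851 in EVT and to 4172, 5255 and 6021 in CTB. The summed levels separated the classes in the direction of their names, but single markers did not all do so. Named after their values were seen, the tested markers not called were ASCL2, ADAM12 and HTRA1 of EVT and ITGB4, EGFR, SPINT2 and CDH1 of CTB, and SPINT2 had nearly the same median in both classes (914 CPM in EVT, 899 in CTB). PAPPA2, an EVT protease, had a median of 0 in both classes. ELF5, a factor of trophoblast stem cells, was at 0 in every EVT library and reached at most 0.452 CPM in CTB, and ASCL2, a factor of EVT differentiation, had a median of 1.71 CPM in EVT and 1.81 in CTB. The 10 genes with the largest fold in CTB cluster 12, against all other cells of the series, held no CTB marker and 1 STB marker, OVOL1, and those of CTB cluster 0 and EVT clusters 19 and 23 held no trophoblast marker of their own class. The authors' classes came from the same expression data, so the tests below describe how far the classes differ and are no independent support for them.

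Over all genes, 1349 of 9747 tested were higher in EVT (13.8%) and 1296 higher in CTB (13.3%), 27.1% in all (edgeR quasi-likelihood test with library as block, Benjamini-Hochberg adjusted p under 0.05), and 3678 (37.7%) had an unadjusted p under 0.05. The median log2 fold of all genes was -0.06. The EVT side held the larger differences, with 933 called genes at 2-fold or more against 511 on the CTB side. In 243 genes (2.49%) every EVT library lay above every CTB library, and in 65 (0.667%) every CTB library lay above every EVT library. The direction of the fit held in all 3 embryos for 91.5% of called genes, and any shared direction held for 37.9% of the others. The calls came from these same libraries, so this is no separate replication across embryos. With counts summed per embryo, which leaves 3 pairs, 905 genes were called, and 850 of them were among the 2645 with the same direction.

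Among the 15 leading EVT genes, LAIR2, SERPINE2, MMP12 and HTRA4 had the highest median levels in EVT. HTRA4, a secreted serine protease of the placenta, stood at 327, 713 and 2765 CPM in EVT and 1.51, 14.3 and 16.6 in CTB (log2 fold 6.35 ± 0.32, SE). All 9 pairs went the same way, which the rule for leading genes required, and the classes did not overlap. The highest EVT levels were in the 3 libraries of E18 and E24 (2077 to 2765), above the 6 of E20 (at most 759). LAIR2, a soluble decoy receptor that binds collagen, had 6090, 10752 and 20888 CPM in EVT against 85.7, 198 and 582 in CTB (5.92 ± 0.33). MMP12, macrophage elastase, had 647, 1885 and 10088 against 4.90, 46.6 and 230 (5.88 ± 0.41). SERPINE2, an inhibitor of serine proteases, had 1210, 5408 and 18742 against 8.40, 100.1 and 933 (5.76 ± 0.58).

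The other leading EVT genes were low in CTB, with medians under 10 CPM in each. CSF2RB, the shared beta chain of the receptors for GM-CSF, IL-3 and IL-5, stood at 35.4, 117 and 269 CPM in EVT (6.33 ± 0.28). ADGRG6, an adhesion receptor coupled to G proteins, stood at 151, 203 and 403 (5.98 ± 0.47), and LAMA4, a laminin chain of vascular basement membranes, at 69.9, 217 and 303 (6.24 ± 0.73). The remaining members were CALCB, FHL1, PROM1, C15orf48, ADAMTS20, IL1B, PTGER3 and PLA2G7, with log2 folds of 5.83 to 7.98. Of the 15 genes, 14 did not overlap between the classes. PLA2G7, the plasma platelet activating factor hydrolase, was the exception: its EVT levels spread from 0.146 to 726 CPM, while CTB stayed at or under 1.88. PTGER3, a receptor for prostaglandin E2, was at 0 in 7 of 9 CTB libraries, so its fitted fold depends on the prior count (log2 7.78 with all libraries, 9.33 without library 20, where CTB had 5.34 CPM).

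The 15 leading CTB genes had log2 folds of -4.50 to -3.15, smaller in size than those of the leading EVT genes. SPDEF, an ETS factor of epithelia, stood at 44.8, 91.7 and 145 CPM in CTB and 0.455, 4.22 and 23.03 in EVT (log2 fold -4.50 ± 0.49). CAV1, the coat protein of caveolae, stood at 14.3, 48.7 and 104 against 0.359, 1.51 and 10.1 (-4.09 ± 0.59). LRP2, the endocytic receptor megalin, stood at 25.98, 69.7 and 138 against 1.37, 7.52 and 16.6 (-3.22 ± 0.33). These 3 and ANKRD22 (-4.13 ± 0.47) did not overlap between the classes, and the other 11 did.

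Among the overlapping CTB genes were DSG3, a desmosomal cadherin (-3.56 ± 0.67), SLC27A2, a fatty acid transporter (-3.42 ± 0.59), VAV3, a guanine nucleotide exchange factor (-3.31 ± 0.23), MSX2, a homeobox factor (-3.22 ± 0.47), and BST2, tetherin (-3.20 ± 0.49). VAV3 shows how they overlapped: it had 9.46, 166 and 190 CPM in CTB and 0.683, 13.3 and 37.6 in EVT, with pooled levels of 28.05 CPM in CTB cluster 0 and 180 in cluster 12. The rest were GSDME, EFEMP1, PDE4D, SH3BGRL2, CCDC138 and FBN2, with folds of -4.06 to -3.15. Each of the 15 was higher in CTB in all 9 libraries, which the rule for leading genes required. Within E18 the calls of DSG3, SLC27A2, VAV3, BST2, PDE4D, SH3BGRL2 and FBN2 were lost, and without E20 those of BST2 and FBN2.

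Cells outside the fit gave nearly the same directions. Library 27, whose title and time label name different days, is from the same E24 embryo as library 20 in the annotation, so it is no separate animal. It held 31 EVT and 27 CTB cells: all 15 leading EVT genes were higher in its EVT cells, and 14 of 15 leading CTB genes, all but FBN2, in its CTB cells. The summed E23 libraries, with 14 EVT and 122 CTB cells, gave 15 of 15 in both directions. These cells carry class names from the same annotation, so they repeat the comparison and do not test the names.

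**Figure D1:**
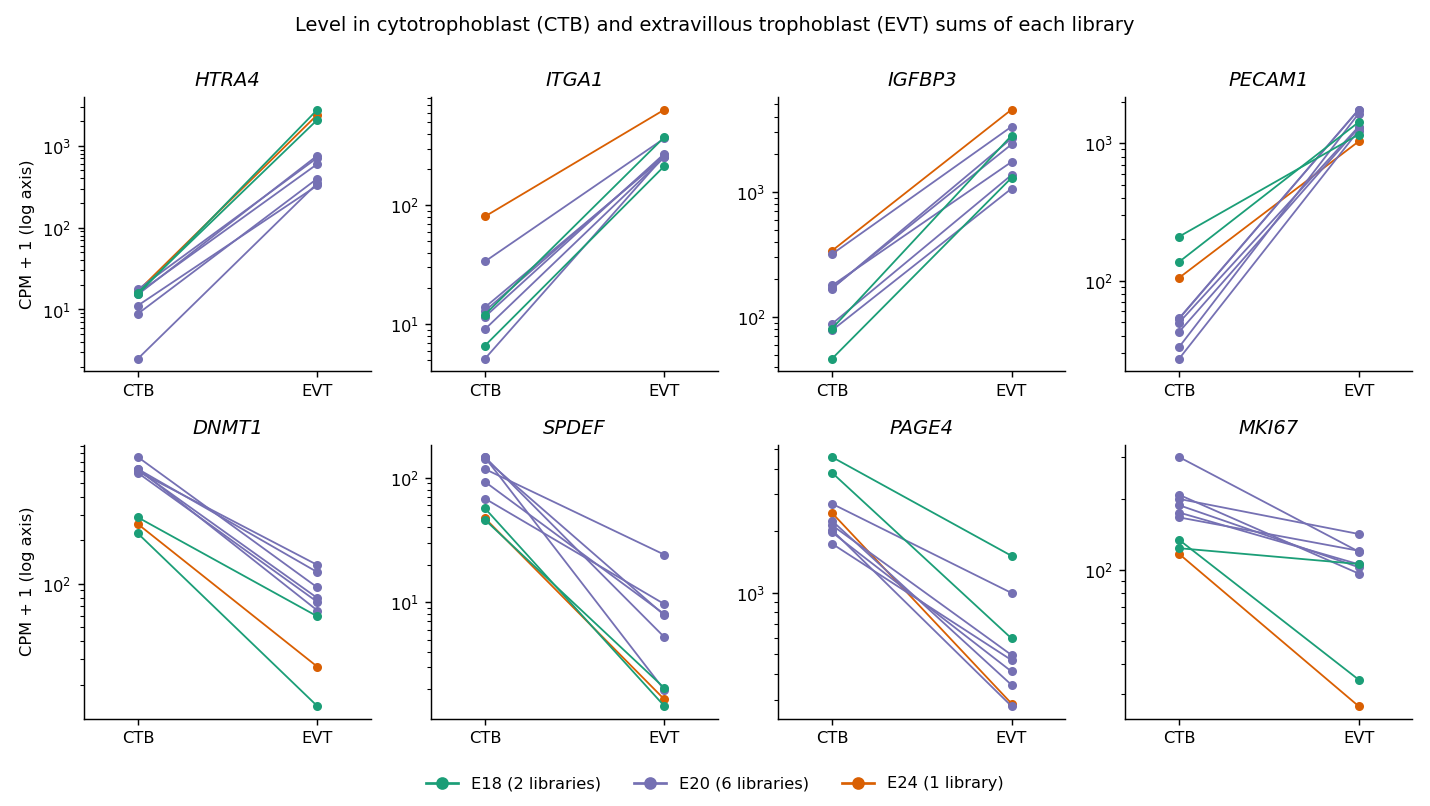
Levels of 8 genes in the CTB and EVT sums of each of 9 libraries, as CPM + 1 on log axes of differing range; each line joins the sums of 1 library, coloured by embryo. All 9 lines run up in the top row (HTRA4, ITGA1, IGFBP3 and PECAM1) and down in the bottom row (DNMT1, SPDEF, PAGE4 and MKI67); MKI67 shows the smallest differences of the 8 and overlapping classes.

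The adhesion genes showed the integrin switch mainly on its gain side. Of 10 integrin subunits tested, 6 were higher in EVT and 1 in CTB, with a median log2 fold of 1.12 beside -0.06 for all genes. ITGA1, a collagen and laminin receptor chain of mature EVT, stood at 213, 262 and 636 CPM in EVT and 4.12, 11.04 and 79.5 in CTB (4.64 ± 0.29). ITGA5, the fibronectin receptor chain, stood at 216, 304 and 645 against 6.95, 16.001 and 71.6 (4.19 ± 0.31). Neither overlapped. On the loss side the differences were smaller: ITGA6, the laminin receptor chain of the CTB layer, stood at 26.4, 51.5 and 93.8 CPM in EVT and 53.6, 110.4 and 160 in CTB (-0.76 ± 0.22), higher in CTB in 9 of 9 libraries with overlap. The ITGA6 call was lost within E20, within E18, without E20, summed per embryo and with at least 20 cells per class. In EVT clusters 13, 19 and 23 its pooled level was 17.8, 51.7 and 122 CPM, against 109, 112 and 8.69 in CTB clusters 0, 12 and 14. Its partner ITGB4 was not called (-1.20 ± 0.64; edgeR adjusted p = 0.188). ITGB1, the common beta chain, was higher in EVT (1.27 ± 0.14), as were ITGA2 (2.83 ± 0.35), ITGA3 (1.37 ± 0.24) and ITGAV (0.96 ± 0.18).

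Matrix genes of the basement membrane were higher in EVT. Of 16 matrix genes tested 10 were higher in EVT and 1 in CTB (median 2.58). COL4A1 stood at 109, 319 and 459 CPM in EVT and 5.18, 14.8 and 54.7 in CTB (4.03 ± 0.48). NID1, nidogen, which links laminin to collagen IV, stood at 104, 158 and 322 against 6.78, 13.3 and 49.2 (3.81 ± 0.21). FN1, fibronectin, stood at 656, 1207 and 4493 against 26.4, 84.4 and 316 (3.95 ± 0.35). None of these 3 overlapped. LAMA1 was the member higher in CTB (-2.57 ± 0.39), and the laminin chains thus split, with LAMA4, LAMB1 (0.96 ± 0.15) and LAMC1 (1.07 ± 0.18) on the EVT side.

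Markers of extraembryonic mesenchyme, which makes the same matrix genes, moved with this group. Their 14 genes summed to 186, 957 and 5114 CPM in EVT and 156, 410 and 1333 in CTB, none at 0 throughout, against 43518 in the pooled mesenchyme cells (EXMC) of the same libraries. Of 10 tested, 5 were higher in EVT (COL1A1, COL1A2, COL6A1, LUM and DCN, folds 1.32 to 1.62) and none in CTB. Each of these 5 calls was lost when single libraries were left out, COL1A1 without any of 7 of the 9 (edgeR adjusted p up to 0.0964) and LUM and DCN without any of 5. The count of 5 became 0 without library 36, 38 or 40, 1 without 20 or 39, 2 without 35, 3 without 43 and 8 without 34. In the pooled mesenchyme cells the FN1 level was 4963 CPM and the COL4A1 level 753, above those of EVT, while LAMA4 (5.82) and HTRA4 (17.5) were far below. The part of mesenchymal RNA in the matrix differences was not tested.

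Proteases and their inhibitors had the highest median of the functional lists, 2.61: 14 of 19 were higher in EVT and none in CTB. MMP2, gelatinase A, stood at 349, 1164 and 2675 CPM in EVT and 15.6, 32.6 and 73.8 in CTB (5.27 ± 0.36). MMP14, the membrane protease that activates it, stood at 73.0, 168 and 349 against 7.35, 35.4 and 41.5 (2.61 ± 0.27). CTSL, a lysosomal cysteine protease, stood at 1589, 2136 and 2967 against 397, 517 and 684 (2.19 ± 0.13). PLAT, tissue plasminogen activator, had 0.974, 67.1 and 242 CPM in EVT and at most 7.33 in CTB (4.84 ± 0.69). The TIMP genes, inhibitors of metalloproteases, were also called toward EVT, TIMP2 (3.74 ± 0.53), TIMP3 (2.36 ± 0.66) and TIMP1, whose call was lost without any of 5 single libraries (1.52 ± 0.47; edgeR adjusted p up to 0.0667) and whose level in mesenchyme cells was 2817 CPM.

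**Figure D2:**
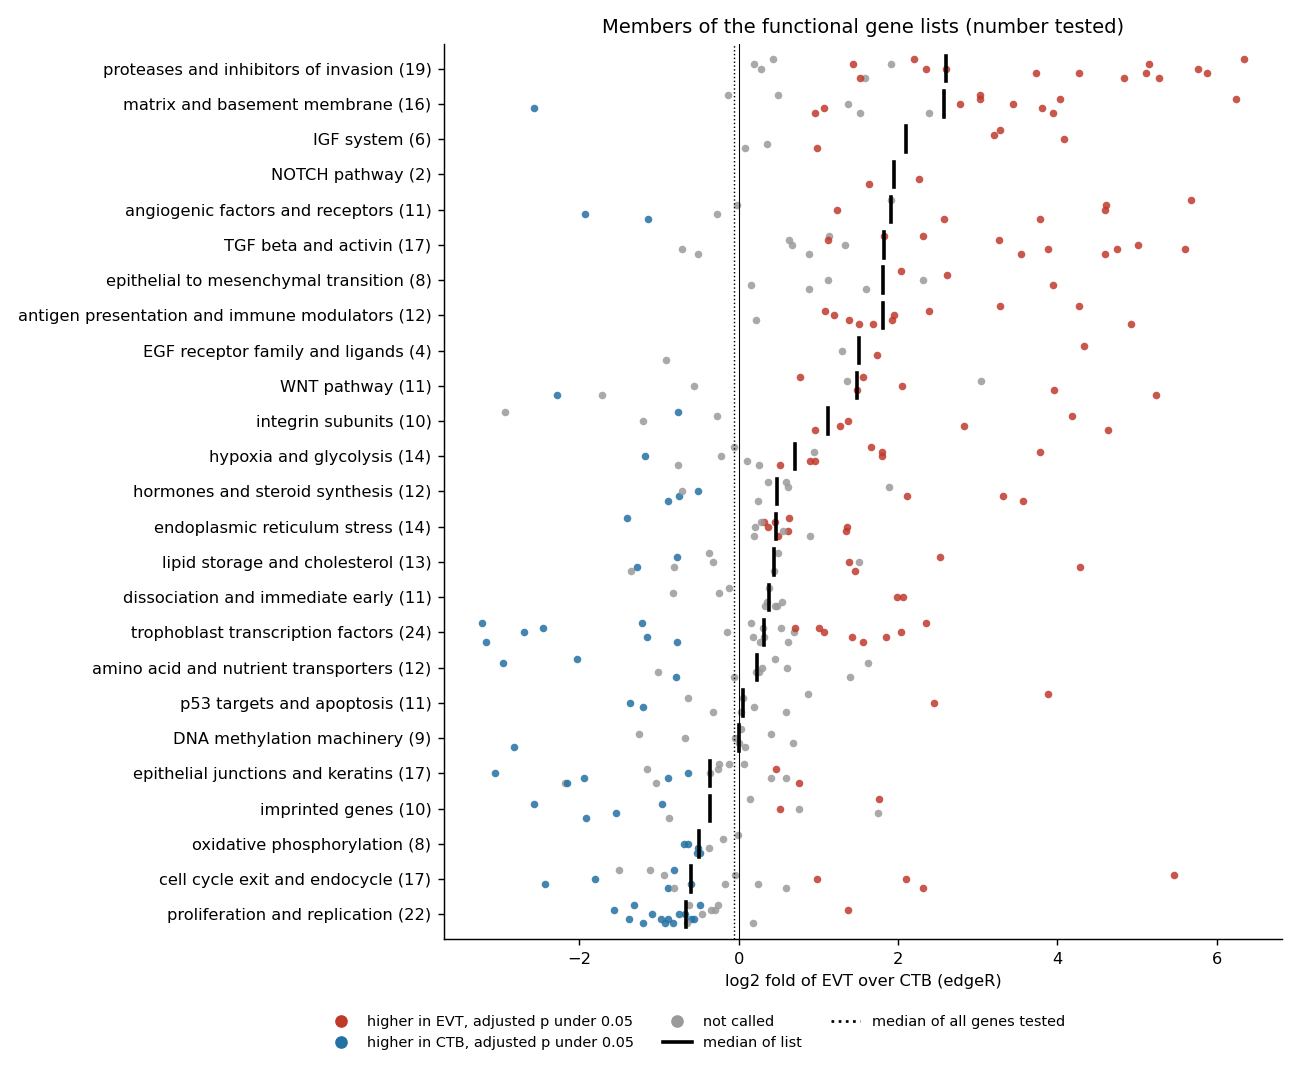
Log2 fold of EVT over CTB for each tested member of 25 functional gene lists, ordered by the median of the list (black bar); red and blue points are genes called higher in EVT or CTB, grey points are not called, and the dotted line marks the median of all genes, -0.06. Proteases, matrix genes and the IGF system lie farthest toward EVT, and proliferation genes farthest toward CTB.

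Secreted signals of the TGF-beta family were higher in EVT. Of 17 members tested 10 were higher in EVT and none in CTB (median 1.83). INHBA, the subunit of activin A, stood at 54.8, 127 and 296 CPM in EVT and 0.431, 2.06 and 12.9 in CTB (5.604 ± 0.52), and TGFB2 at 135, 183 and 224 against 1.19, 6.77 and 47.9 (4.75 ± 0.45). FST, follistatin, which binds activin, was higher as well at 73.7, 246 and 1096 against 4.55, 7.54 and 20.5 (5.01 ± 0.52). Among the receptors TGFBR2 (3.27 ± 0.50) and the coreceptor ENG (4.60 ± 0.67) did not overlap between the classes. The signal transducer SMAD3 was higher in EVT in 8 of 9 libraries (3.88 ± 0.76), and SKIL, a target gene that feeds back on SMADs, in 9 (1.83 ± 0.24).

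In the WNT list 6 of 11 tested were higher in EVT and 1 in CTB (median 1.48). NOTUM, an enzyme that removes the lipid from WNT proteins and so inactivates them, stood at 653, 1311 and 2548 CPM in EVT and 15.1, 28.7 and 82.2 in CTB (5.24 ± 0.24), with no overlap. DKK1, a secreted inhibitor of the WNT coreceptors, stood at 0.791, 9.72 and 41.9 against 0, 0.324 and 8.12 (3.95 ± 1.148). Its level in pooled mesenchyme cells was 275 CPM. AXIN2, a target gene of the pathway, was higher in EVT in 8 of 9 libraries (1.48 ± 0.25), as were the factors TCF7 (2.06 ± 0.54) and, in 9 libraries without overlap, TCF7L2 (1.56 ± 0.16). ZNRF3, which removes WNT receptors from the surface, was higher in CTB (-2.28 ± 0.67). The calls of DKK1, AXIN2, TCF7 and ZNRF3 were lost without E20 and within E18, while those of NOTUM and TCF7L2 held in both.

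Growth factor and vascular genes followed. IGFBP3, which binds insulin-like growth factors, stood at 1062, 2394 and 4540 CPM in EVT and 45.5, 168 and 338 in CTB (4.08 ± 0.18). Its level in pooled mesenchyme cells was 6989 CPM, above the 2208 of pooled EVT cells. In the IGF list 4 of 6 tested were higher in EVT and none in CTB (median 2.10). Of these 4, IGF2R lost its call without any of 6 single libraries (edgeR adjusted p up to 0.107). ERBB2, a receptor that EVT gain, was higher in EVT (1.73 ± 0.45), whereas EGFR, the receptor of the villous layer, had 0.517, 22.01 and 38.1 against 14.4, 35.7 and 69.0 CPM and was not called (-0.91 ± 0.40; edgeR adjusted p = 0.104). Of 4 tested members of that family 2 were higher in EVT, the other being the ligand HBEGF (4.33 ± 0.83). Without E20, within E18 and summed per embryo the calls of ERBB2 and HBEGF were lost, and within E20 that of ERBB2. Both NOTCH genes tested, NOTCH2 (1.63 ± 0.28) and the target HES1 (2.26 ± 0.44), were higher in EVT, at 8 and 9 of 9 libraries.

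Of 11 angiogenic factors and receptors 6 were higher in EVT and 2 in CTB (median 1.91). FLT1, a receptor for VEGF and placental growth factor, stood at 399, 1192 and 2316 CPM in EVT and 4.202, 69.1 and 155 in CTB (4.61 ± 0.42). EDNRB, an endothelin receptor, stood at 129.8, 223 and 385 against 1.60, 5.58 and 13.7 (5.68 ± 0.34). VEGFA (2.58 ± 0.22), PGF (1.23 ± 0.25) and ADM, adrenomedullin (3.78 ± 0.59), were higher in EVT, and the coreceptors NRP1 (-1.13 ± 0.26) and NRP2 (-1.93 ± 0.44) in CTB. PECAM1, an adhesion molecule of endothelium that endovascular EVT also carry, stood at 1028, 1317 and 1753 against 26.2, 52.1 and 209 (4.60 ± 0.36). Of 5 endothelial markers tested 2 were higher in EVT and none in CTB (median 1.91): PECAM1 and TEK, the angiopoietin receptor, at medians of 7.66 CPM in EVT and 1.69 in CTB (2.12 ± 0.69), whose call was lost without any of 5 single libraries (20, 35, 36, 37 or 39; edgeR adjusted p up to 0.0952). The 8 endothelial markers summed to 1178, 1573 and 2066 CPM in EVT, most of it PECAM1. CLDN5, a defining endothelial gene, was at 0 in all libraries of both classes, and KDR, the main VEGF receptor of endothelium, had medians of 4.53 and 1.51 CPM.

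Immune genes lay on the EVT side. Of 12 antigen presentation and immune modulator genes tested, 11 were higher in EVT and none in CTB (median 1.81). HLA-E, a class I molecule that binds a receptor of natural killer cells, stood at 234, 471 and 671 CPM in EVT and 64.7, 130.1 and 172 in CTB (1.93 ± 0.12), without overlap. B2M, the light chain of class I, stood at 618, 1094 and 5744 against 236, 324 and 2172 (1.68 ± 0.13), higher in 9 of 9 libraries with overlap. The peptide transporter gene TAP2 (1.95 ± 0.30) and its partner TAPBP (2.39 ± 0.48) were higher too. Class I genes are a family of near-identical copies in macaques, so reads may be split between them and their levels are uncertain, and HLA-G was not analysed here.

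Inhibitory and complement genes moved with them. LGALS3, galectin-3, stood at 721, 843 and 1154 CPM in EVT and 43.04, 75.4 and 318 in CTB (3.28 ± 0.30). The complement regulators CD46 (1.19 ± 0.15), CD55 (1.39 ± 0.24) and CD59 (1.09 ± 0.15) were each higher in EVT in 9 of 9 libraries. The T cell ligands CD274 (4.27 ± 1.01) and PDCD1LG2 (4.92 ± 1.06) were low, with EVT medians of 14.2 and 6.15 CPM, and were at 0 in at least 1 library of each class. Of 9 macrophage and blood markers 3 were tested and 2 were higher in EVT, TYROBP (4.41 ± 0.56) and CSF1R (3.29 ± 0.79). Their 9 genes summed to 1.81, 49.1 and 172 CPM in EVT and 2.51, 8.07 and 13.9 in CTB, with HBZ at 0 in both classes and AIF1 at 0 in CTB. Of the markers not tested, PTPRC and SPI1 had pooled EVT levels of 0.252 and 0.637 CPM. In EVT clusters 13, 19 and 23 TYROBP was at 18.3, 7.49 and 226 CPM, PTPRC at 0.104, 0.365 and 0.0698, and SPI1 at 0.104, 1.04 and 0. CSF1R and CD68 were also highest in cluster 23, at 23.5 and 23.6 CPM. Whether single macrophages contribute to the EVT values was not tested.

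Transcription factors split in both directions. Of 24 tested, 8 were higher in EVT and 7 in CTB (median 0.31). On the CTB side TEAD4, a factor of trophoblast identity, stood at 13.5, 44.2 and 131 CPM in CTB and 0.325, 13.9 and 36.8 in EVT (-2.45 ± 0.40), TP63, of epithelial stem cells, at 5.59, 12.7 and 31.8 against 0, 1.78 and 9.66 (-3.17 ± 0.86), and GATA2 at 69.7, 182 and 247 against 25.7, 71.8 and 162 (-1.22 ± 0.18). YAP1, the coactivator of TEAD factors, was higher in CTB as well (-1.82 ± 0.32). On the EVT side stood SNAI1, a repressor of epithelial genes (64.3, 88.3 and 122 against 13.9, 26.1 and 42.7; 2.03 ± 0.23), and the hypoxia factors EPAS1 (1.08 ± 0.10) and HIF1A (0.70 ± 0.17). The calls of TEAD4, YAP1 and HIF1A were lost without E20 and within E18, and that of TP63 within E20 and summed per embryo. Those of GATA2, SNAI1 and EPAS1 were lost within E18 and held without E20. GATA3 (0.26 ± 0.14; edgeR adjusted p = 0.190) and TFAP2C (-0.15 ± 0.25; 0.709), factors of the whole lineage, were not called.

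The epithelial program was only partly lower in EVT. In the list of junction and keratin genes 5 of 17 were higher in CTB, 2 in EVT and 10 were not called (median -0.36). CLDN3, a tight junction protein, stood at 3.50, 41.3 and 55.9 CPM in CTB and 0, 6.23 and 14.5 in EVT (-3.06 ± 0.50), and EPCAM, an epithelial adhesion molecule, at 92.1, 206 and 449.7 against 8.88, 61.1 and 144 (-1.94 ± 0.42). CDH1, the epithelial cadherin, had 4.27, 18.98 and 37.8 against 2.19, 11.7 and 21.6 CPM and was not called (-1.04 ± 0.57; edgeR adjusted p = 0.195). In the list of epithelial to mesenchymal transition genes 3 of 8 were higher in EVT and none in CTB (median 1.81): SNAI1, FN1 and ZEB2, a repressor that is far higher in mesenchyme cells (201 CPM) than in EVT (median 6.98; 2.61 ± 0.70). VIM, vimentin, was not called (1.59 ± 0.60; edgeR adjusted p = 0.0614), but was without library 34 or 37. The count of 3 was 5 without library 34 and 2 without library 35.

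Cell cycle genes were lower in EVT as a group, with CCNB1 going the other way. Of 22 proliferation and replication genes 14 were higher in CTB and 1 in EVT (median -0.67). The largest fold of the list was that of MCM2, a subunit of the replication helicase, which stood at 57.2, 88.8 and 174 CPM in CTB and 2.05, 40.4 and 64.1 in EVT (-1.56 ± 0.31). MKI67 stood at 116, 174 and 298 against 25.6, 105 and 141 (-0.93 ± 0.21), and TOP2A at 201, 313 and 516 against 41.4, 175 and 325 (-0.98 ± 0.23), both lower in EVT in 9 of 9 libraries with overlap. AURKA and CCNA2 were 2 of the 14, and lost their calls without any of 6 and 4 single libraries (edgeR adjusted p up to 0.0788 and 0.0775). MKI67 and TOP2A lost theirs with at least 20 cells per class and within E18, and MCM2 without E20 and within E18. MCM4 alone of the 14 kept its call in every alternative, and CCNB1 lost its call within E18.

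CCNB1, the mitotic cyclin, was higher in EVT in all 9 libraries, at 531, 1084 and 1346 CPM against 279, 369.7 and 529 (1.37 ± 0.16), and the classes did not overlap. Its relative CCNB2 went toward CTB (-1.32 ± 0.19). In the list of exit and endocycle genes 4 of 17 were higher in EVT and 5 in CTB (median -0.60). CCNE1, the cyclin of entry into replication, stood at 361, 852 and 1296 in EVT and 296, 389.8 and 588 in CTB (0.98 ± 0.14), while its kinase CDK2 was lower in EVT (-0.81 ± 0.16), as were CDK4 (-0.89 ± 0.13) and CDK6 (-2.43 ± 0.37). RB1, the retinoblastoma protein that restrains entry, was higher in EVT in 8 of 9 libraries (2.10 ± 0.41). The inhibitor CDKN2C was at most 17.8 CPM in EVT (5.47 ± 0.94), and CDKN1A was not called (0.59 ± 0.49; edgeR adjusted p = 0.411).

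**Figure D3:**
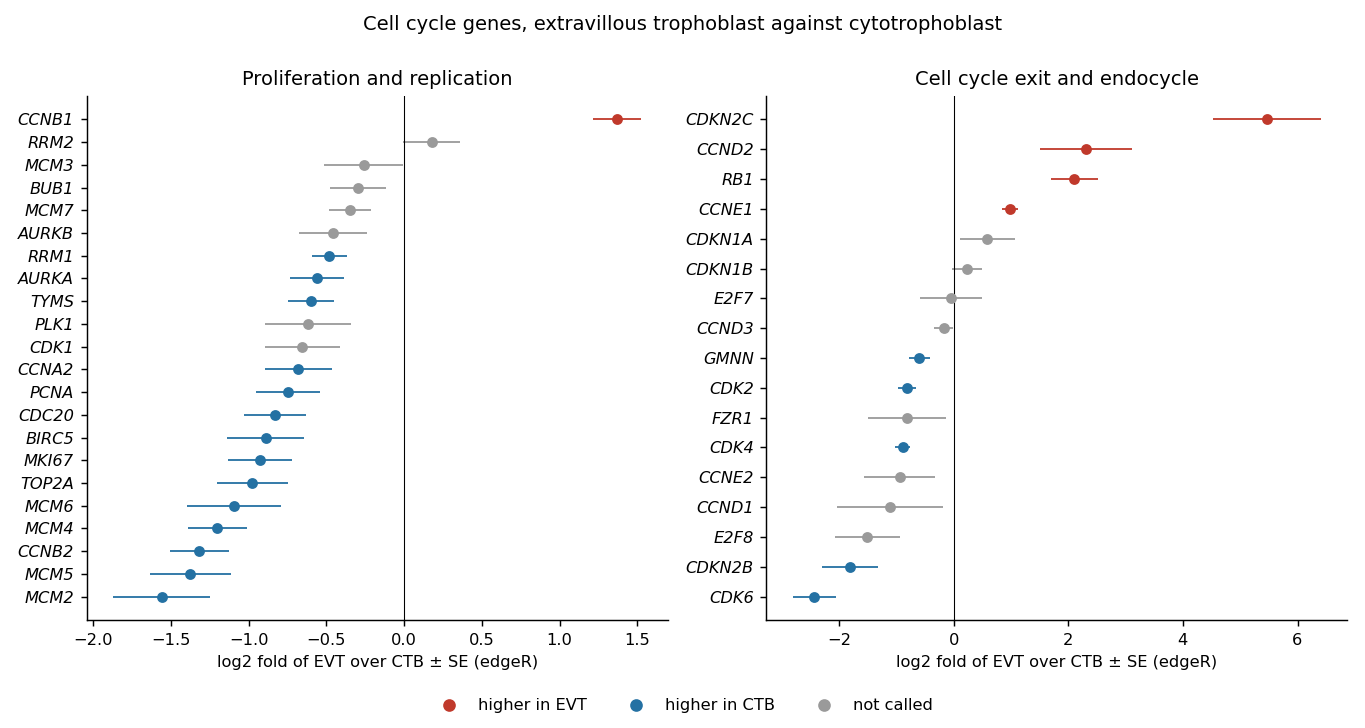
Log2 fold of EVT over CTB with its standard error for 22 proliferation genes (left) and 17 genes of cell cycle exit and endocycle (right), over 9 libraries; red and blue are called higher in EVT or CTB, grey is not called, and the axes differ in range. On the left CCNB1 stands alone on the EVT side at 1.37, and MCM2 lies lowest at -1.56; on the right CDKN2C has both the largest fold and the widest error.

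DNMT1, the enzyme that copies DNA methylation after replication, had the largest difference among 9 tested genes of DNA methylation and was the 1 member called. It stood at 222, 599 and 753 CPM in CTB and 13.2, 73.9 and 134 in EVT (-2.82 ± 0.19; edgeR adjusted p = 8.85e-08), lower in 9 of 9 libraries with no overlap. UHRF1, which guides DNMT1 to replicated DNA, had medians of 6.47 CPM in CTB and 2.47 in EVT and was not called (-1.25 ± 0.86; edgeR adjusted p = 0.310), and the de novo enzyme DNMT3A, at 31.4 and 29.5, gave the list median (-0.000672 ± 0.26). The DNMT1 fold was larger in size than that of any of the 22 proliferation genes. Among 10 imprinted genes 4 were higher in CTB and 2 in EVT (median -0.37): ZFAT (-2.57 ± 0.26), PEG10 (-1.92 ± 0.27), PEG3 (-1.54 ± 0.12) and MEST (-0.96 ± 0.18), which are expressed from the paternal allele in human or mouse, were on the CTB side, and PHLDA2, a maternally expressed brake on placental growth, was on the EVT side (0.52 ± 0.13). The other gene on the EVT side was DLK1, a paternally expressed growth regulator, so the sides did not follow the parental allele. It had 1.83, 25.8 and 92.2 CPM in EVT and 1.26, 10.2 and 40.2 in CTB (1.76 ± 0.52), its call was lost without library 39 (edgeR adjusted p = 0.0508), and its level in pooled mesenchyme cells was 1149 CPM.

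Genes of the syncytiotrophoblast (STB), the fused hormone-secreting layer that also forms from CTB, were called in both directions, with 4 of 10 markers higher in EVT and 4 in CTB (median 1.02). Over single libraries the CTB count was less stable, while the 4 EVT calls held without any of them. The CTB calls numbered 1 without library 37, 4 without library 38, 3 without library 20 and 2 without each of the others. CGA, HSD3B1 and TBX3 were the 3 lost without library 37, and the fourth, OVOL1, turned without E20. On the EVT side SDC1 and GDF15 lost their calls without E20 and within E18. INSL4, a relaxin family hormone of the placenta, stood at 999, 1471 and 2091 CPM in EVT and 54.3, 145 and 261 in CTB (3.57 ± 0.20), above the 409 of pooled STB cells. CYP11A1, the first enzyme of steroid synthesis, stood at 116, 179 and 254 against 10.3, 52.98 and 89.1 (2.11 ± 0.25), and GCM1, the fusion factor, at 244, 354 and 424 against 39.5, 169 and 262 (1.43 ± 0.24). In pooled STB cells both were higher than in pooled EVT cells, CYP11A1 at 468 against 182 CPM and GCM1 at 590 against 360. In the list of hormones and steroid genes 3 of 12 were higher in EVT and 3 in CTB (median 0.48). The CTB calls were CGA, HSD3B1 (-0.51 ± 0.17) and FDXR (-0.74 ± 0.24), and none of the 3 was called without library 37, 39 or 40, nor more than 2 of them without any other library. CGA, the shared hormone alpha subunit, had 353, 752 and 2430 CPM in EVT and 651, 1295 and 4018 in CTB, both far under the 44778 of STB cells. Its call toward CTB (-0.89 ± 0.31; edgeR adjusted p = 0.0440) was lost without any of 6 single libraries (up to 0.114) and turned without E20 (0.38).

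Metabolic genes differed by less than the secreted groups. Of 14 hypoxia and glycolysis genes 7 were higher in EVT and 1 in CTB (median 0.70), among them the hypoxia target NDRG1 at 234, 431 and 1056 CPM against 66.9, 160.3 and 223 (1.66 ± 0.12) and the hexokinase HK2 (1.79 ± 0.28), with the oxygen sensor EGLN3 higher in CTB (-1.18 ± 0.18). Of 8 nuclear genes of oxidative phosphorylation 5 were higher in CTB and none in EVT (median -0.50), such as UQCRC1 of complex III (-0.53 ± 0.11) and ATP5F1A of the ATP synthase (-0.51 ± 0.11). All 5 calls were lost with at least 20 cells per class, with counts summed per embryo and within E18. The lipid list was split (4 of 13 higher in EVT, 2 in CTB, median 0.45), with the lipid droplet gene CIDEC (4.28 ± 0.67) and the fatty acid carrier FABP4 (2.53 ± 0.53) on the EVT side and the cholesterol genes HMGCS1 (-1.28 ± 0.27) and SQLE (-0.77 ± 0.18) on the CTB side. Of 12 transporters 3 were higher in CTB and none in EVT (median 0.24): SLC7A8 (-2.96 ± 0.54), SLC40A1, the iron exporter (-2.03 ± 0.32), and TFRC, the transferrin receptor (-0.79 ± 0.19). Without E20, which leaves fewer libraries, the calls of HK2, EGLN3, UQCRC1, ATP5F1A and CIDEC were lost. So were those of HMGCS1, SQLE, SLC7A8, SLC40A1 and TFRC, while that of NDRG1 held.

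In the secretory pathway 8 of 14 genes were higher in EVT and 1 in CTB (median 0.47). HSP90B1, the chaperone of the endoplasmic reticulum, stood at 2053, 2788 and 3329 CPM in EVT and 1715, 1930.1 and 2227 in CTB (0.62 ± 0.10), and the stress sensor targets HERPUD1 (1.35 ± 0.18) and DNAJC3 (1.36 ± 0.12) were higher in 9 of 9 libraries. DDIT3, a factor of prolonged stress, was higher in CTB (-1.41 ± 0.25). Immediate early genes, which rise when tissue is dissociated, were mostly not called (9 of 11, median 0.38; FOS 0.34 ± 0.14, edgeR adjusted p = 0.100), with FOSL2 (2.07 ± 0.32) and IER3 (1.99 ± 0.57) higher in EVT. Of 11 p53 targets 2 were called in each direction (median 0.06), the largest being BBC3 (3.88 ± 0.72) and GADD45A (2.45 ± 0.27) toward EVT. Of 8 amnion markers 1 was tested, IGFBP3, and of 2 endoderm markers tested none was called. Of 3 epiblast markers tested, SALL4 was higher in CTB (-3.34 ± 0.85, CTB median 4.58 CPM), and without library 37, 39, 40 or 43 it did not pass the filter on low counts.

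The EVT cells were not uniform, and their 3 fine clusters held different parts of the contrast. These levels are pooled CPM of 55 cells in cluster 13, 84 in cluster 19 and 33 in cluster 23, given as a description, since the clusters were made from these genes. Cluster 23 held most of the protease and inflammatory signal: MMP12 at 487, 224 and 11898 CPM in clusters 13, 19 and 23, SERPINE2 at 557, 1380 and 27130, MMP2 at 427, 236 and 5497, and PLA2G7 at 10.2, 12.1 and 447. The cell cycle genes had the opposite order, with CCNB1 at 1320, 1289 and 53.6 and MKI67 at 76.5, 145 and 15.3. In CTB clusters 0 and 12 CCNB1 was at 461 and 367. The higher CCNB1 of EVT was therefore found in clusters 13 and 19 and not in cluster 23. CALCB was highest in cluster 13 (863, 552 and 69.9), and DLX4, a homeobox factor, in cluster 19 (18.98, 66.4 and 0.419). LAIR2 (13210, 5990 and 19435), HTRA4 (1373, 375 and 1894) and INSL4 (1358, 1184 and 2497) were above all 3 CTB clusters in each.

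**Figure D4:**
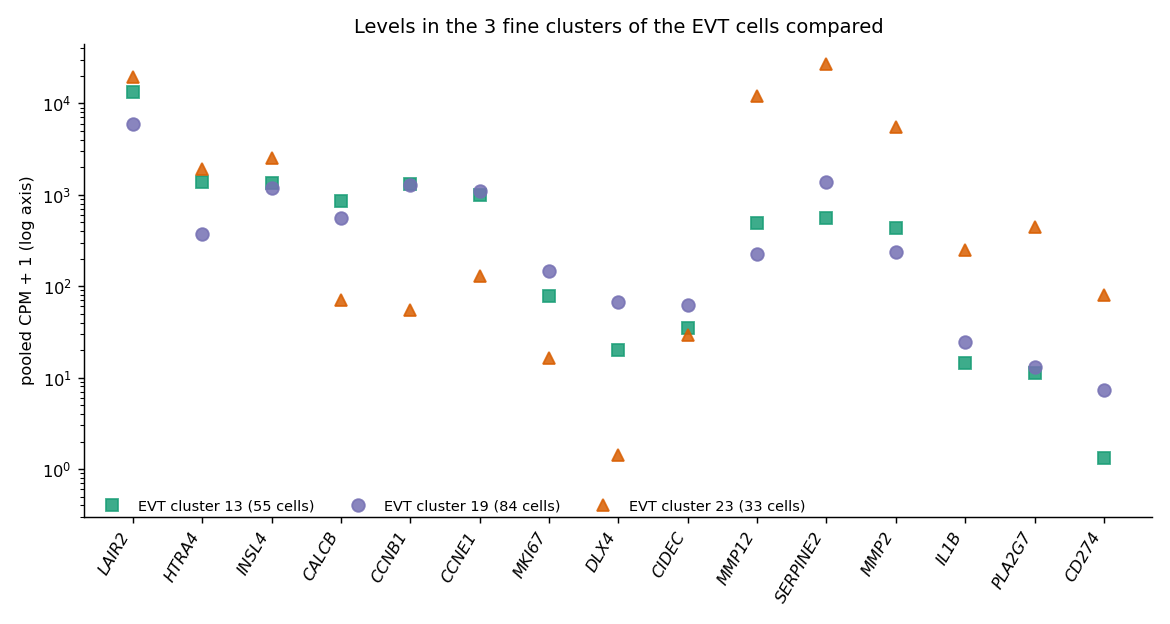
Pooled CPM + 1 (log axis) of 15 genes in the EVT cells of fine clusters 13, 19 and 23, from the libraries compared; each point pools all cells of a cluster and carries no replicate error. Cluster 23 is highest for MMP12, SERPINE2, MMP2, IL1B, PLA2G7 and CD274 and lowest for CALCB, CCNB1, CCNE1, MKI67 and DLX4.

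Across days no change of the class difference was called. The term for a linear change of the EVT minus CTB difference with day had 0 of 9747 genes at adjusted p under 0.05 in edgeR (0.00%), and 447 (4.59%) at an unadjusted p under 0.05. DESeq2 and limma-voom also gave 0, with 641 and 163 at an unadjusted p under 0.05. The design is thin, since E24 is 1 library. Without it 64 genes were called upward and 23 downward, without E18 20 and 85, and without E20 3 and 14.

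Because the E20 cells sat in clusters of their own, a term for the difference in E20 against E18 and E24 was added after those clusters had been seen. It called 128 genes with a difference larger toward EVT in E20 (1.31%) and 48 larger toward CTB (0.492%) in edgeR at adjusted p under 0.05, while the median over all genes was 0.10 and 1468 genes (15.1%) had an unadjusted p under 0.05. Summed per embryo, where only 3 pairs remain, 22 were called, and without library 20, the only one of E24, 64 and 23. The E20 values below compare CTB mostly of cluster 12 and EVT mostly of cluster 19 with CTB of cluster 0 and EVT of clusters 13 and 23.

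Of the 128 genes shifted toward EVT, 104 had a higher pooled EVT level in E20 than in both other embryos and 69 a lower CTB level, beside 5458 and 1811 of all 9747 genes. The genes described here were among those with the smallest p. CCND1, the cyclin of early cell cycle entry, had 251 CPM in CTB and 3.03 in EVT of E18 and 243 and 5.19 in E24, but 88.3 and 116 in E20 (difference of log2 folds 6.55 ± 0.62). It was not called in the contrast over all libraries (-1.11 ± 0.92; edgeR adjusted p = 0.413), with EVT lower in 3 of 3 libraries of E18 and E24. EPCAM was 106 and 9.33 CPM in E18, 450 and 11.04 in E24 and 209 and 86.9 in E20 (3.02 ± 0.38). KRT19, an epithelial keratin, was 951 and 456 in E18, 1384.5 and 487 in E24 and 2168 and 2229 in E20 (1.38 ± 0.15). MYL3, a myosin light chain, was 231 and 17.9 in E18, 239 and 16.2 in E24 and 102 and 181 in E20 (4.77 ± 0.35).

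Of the 48 genes shifted toward CTB, 46 had a higher pooled CTB level in E20 than in both other embryos and 22 a lower EVT level, beside 5862 and 1879 of all 9747 genes. OVOL1, a repressor tied to syncytial differentiation, was 5.26 CPM in CTB and 4.84 in EVT of E18, 8.98 and 12.3 in E24, and 197 and 12.1 in E20 (-3.95 ± 0.57). By library its CTB level was 2.80 to 8.98 in E18 and E24 and 55.2 to 283 in E20, while all 9 EVT libraries lay at or under 27.4. Its call toward CTB over all libraries (-2.70 ± 0.60) rested on E20, and without that embryo the fold was 0.24 ± 0.92. GCM1 had an E20 term of the same sign (-1.53 ± 0.27), but its fold over all libraries went toward EVT. It stood at 244 to 424 CPM in EVT in all embryos. In CTB it stood at 39.5 to 71.8 in E18 and E24 and at 155 to 262 in E20. SGK1, a kinase induced by steroids and stress, was 1.75 CPM in CTB and 47.6 in EVT of E18, 20.1 and 291 in E24 and 51.2 and 33.8 in E20 (-4.87 ± 0.49). For PECAM1 the EVT level was similar in all embryos and the E20 CTB level lower (41.1 CPM, against 167 in E18 and 104 in E24; 2.27 ± 0.26).

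**Figure D5:**
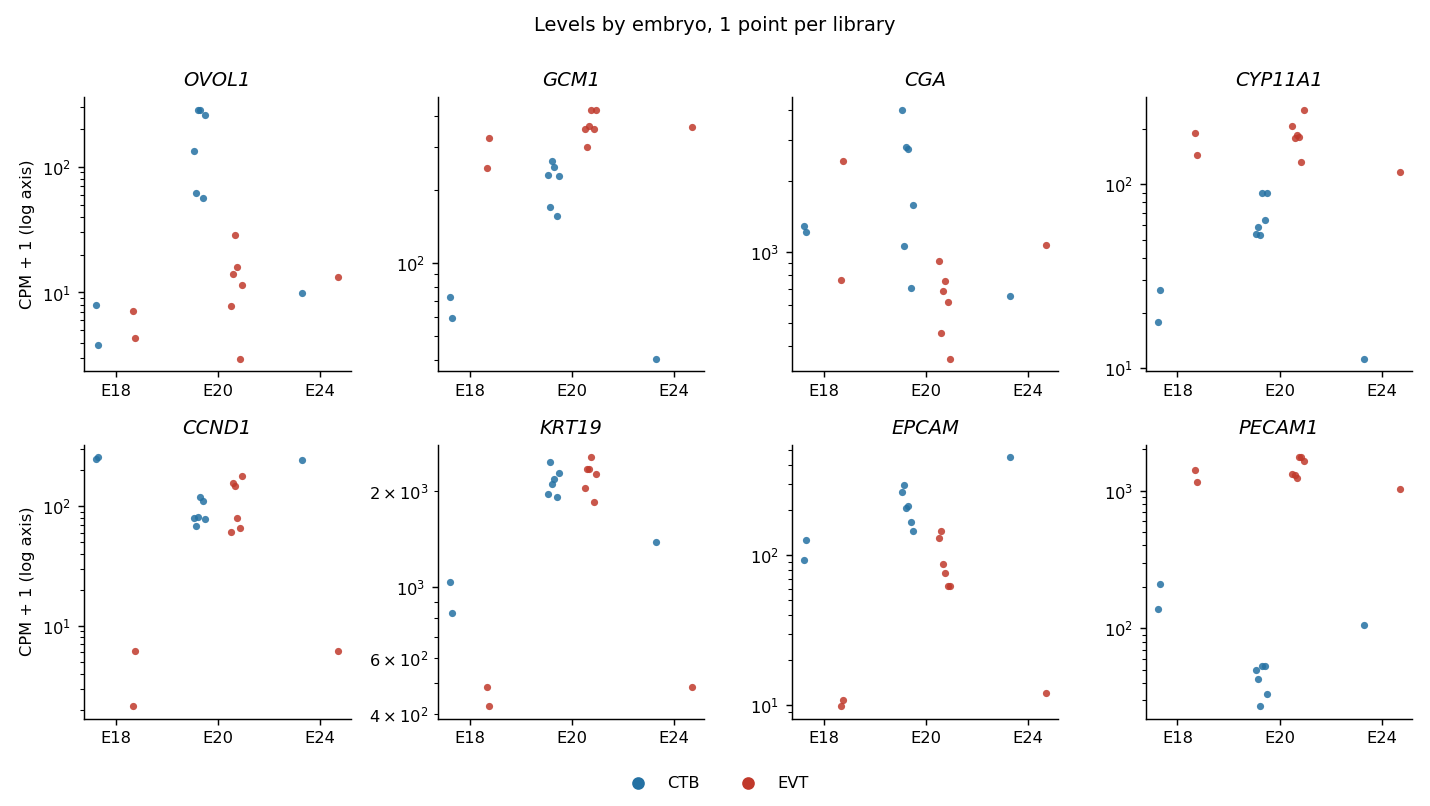
CPM + 1 (log axes of differing range) of 8 genes in CTB and EVT by embryo, 1 point per library (2 of E18, 6 of E20, 1 of E24). OVOL1 and GCM1 are raised in the CTB libraries of E20, CCND1, KRT19 and EPCAM are raised in the EVT libraries of E20, and PECAM1 is lowest in the CTB libraries of E20.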

How the data were processed

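The authors deposited raw counts per gene and cell, with no normalization (21834 genes, 3682 cells), and an annotation of each cell's class, fine cluster (resolution 2) and embryo. Per the submitters' processing notes, cutadapt 1.15, STAR 2.6.0a and HTSeq 0.10.0 were used. The sources used here do not give the genome build, the strand setting, the treatment of doublets or whether a count is a read or a molecule; no doublet caller was run.

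Counts were summed per library and class, so deep cells weigh more. edgeR 4.0.16 in R 4.3.3 fitted class with library as block (filterByExpr, TMM, quasi-likelihood F test, Benjamini-Hochberg adjustment over all genes tested, threshold 0.05). The block pairs sums of 1 library, and so of 1 embryo. DESeq2 1.42.0 and limma-voom (limma 3.58.1) were alternatives. The standard error is the size of the log2 fold divided by the square root of F, an approximation. CPM were taken over each class sum, without TMM. Leading genes carry a symbol, passed the test, reached 20 CPM in the pooled higher class and went the same way in every library; the 15 with the largest fold were taken per direction. Listed genes were named by smallest p, up to 4 per direction, or from a fixed set. The 34 lists (9 of markers, 25 functional) hold 498 genes, of which 335 were tested and 193 called. Members and lists were chosen with earlier results of these data known. Data with known folds were simulated over 9747 genes. The class test recovered 37% of genes with a log2 fold of 1 and 68% with 2, and called 0.0628% of unchanged genes. The day term recovered 1% and 34%, and called 0.0209%. Its planted fold was not a fold per day, so its rates do not give the recovery of such a change. The simulation did not copy the embryo shared by most real libraries. The rate of false calls in the real data was therefore not tested. Libraries 26 and 27 carry conflicting day labels and were left out of the main fits. Some members of the lists are counted but not reported here by name.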

Additional observations from a re-analysis of the deposited data

Results flagged for a closer look

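With 34 groups of 9 libraries examined for 1 value far from the rest, which chance gives in about 1 in 20 groups, 2 stood out. CALCB, the beta form of calcitonin gene related peptide, had a log2 difference of 1.10 in library 40, where the median library had 6.28 (on CPM + 1); CTB of that library had 54.9 CPM of CALCB and EVT 119. The CTB cells of library 39 had a median total count of 441532, against 231189 in the median library.

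The difference between EVT and CTB was not the same in E20 as in E18 and E24 for 128 genes that lay more toward EVT in E20 and 48 that lay more toward CTB (edgeR, Benjamini-Hochberg adjusted p under 0.05). Day, embryo, library code and the fine clusters of E20 cannot be told apart; sex takes another split, since E24 was female as E20 was and E18 male. Beside the genes given above (CCND1 6.55, EPCAM 3.02, KRT19 1.38, PECAM1 2.27, OVOL1 -3.95 and GCM1 -1.53, as differences of log2 folds), the leading genes LAMA4 (4.21 ± 0.81) and PROM1 (3.39 ± 0.71) were shifted toward EVT in E20, and both were called toward EVT without E20 (log2 fold 3.40 and 3.77) and within E20 (7.55 and 7.13). Listed genes shifted toward EVT were CDKN2B (3.30), COL4A1 (2.66), RB1 (2.31), LGALS3 (1.92), ITGA5 (1.72), NRP1 (1.60), SLC16A1 (1.35), CTNNB1 (1.296), HSPA8 (1.23), PGK1 (1.01) and ENO1 (0.87). Those shifted toward CTB were FOSB (-2.03), CGA (-1.80), CYP11A1 (-1.52), CD55 (-1.44), TFAP2A (-1.44) and HSPA5 (-0.89).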

How the results depend on the processing

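Of the 30 leading genes, 21 kept their call under every alternative in which they could be tested (10 were tested in all 27, the others in at least 22). Calls were lost by CALCB on the EVT side and by DSG3, PDE4D, SH3BGRL2, CCDC138, SLC27A2, VAV3, BST2 and FBN2 on the CTB side. None of the 30 reversed or lost its call without a single library, though the rule that chose them made this likely. Of 193 called list members, 55 kept it wherever they could be tested (50 in all 27), 25 lost it without at least 1 library and 4 reversed: CGA (0.38 without E20, 0.19 within E18), OVOL1 (0.24 and 0.10), DLX4 (-0.43 within E18) and BNIP3 (-0.10 without E20); the cause was not tested. The counts of genes higher in EVT and in CTB (1349 and 1296) kept within 1.5 times under DESeq2 (1674 and 1796), limma-voom, other size factors, other filters, at least 5 cells per class, all EVT cells, library 27 added, equal totals and within E20. They were 527 and 217 with at least 20 cells per class, 608 and 297 summed per embryo, 674 and 490 without E20, 446 and 230 within E18, and 817 and 720 with each cell thinned to 20000 counts, an alternative added after seeing the data, where 4998 genes could be tested; with no replicate block, CTB genes numbered 693 (1084 on the EVT side). Without single libraries they ran from 1227 to 1321 and from 1033 to 1173.

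For the change with day, 0 genes upward and 0 downward became 64 and 23 without library 20 (also without E24, which is that library; 0 to 64 and 0 to 23 over all single libraries), 3 and 14 without E20, 20 and 85 without E18 and 6 and 26 with at least 20 cells. The E20 term (128 and 48) gave 374 and 198 in DESeq2, 80 and 19 in limma-voom, 85 toward EVT with at least 5 cells, 26 and 6 with at least 20, 12 and 10 summed per embryo, 79 toward EVT with thinned cells, 64 and 23 without E24, 85 and 20 without E18, and 64 to 184 and 23 to 50 without single libraries. With clusters 7 and 18 included, depth turned: the EVT minus CTB difference was -0.19 in log2 total counts per cell (exact permutation p = 0.523) and -294.2 in genes detected (exact permutation p = 0.391). The day term was not fitted within 1 embryo or with library 27, nor the E20 term without E20. Levels near 1 CPM rest on a few counts per sum, and folds of genes at 0 in most CTB libraries depend on the prior count.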

Other observations

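The E20 term held further named genes, chosen after their values were seen as the 8 with the smallest p in each direction. Toward EVT, AGXT, a peroxisomal enzyme of glyoxylate metabolism, had 118 CPM in CTB and 4.72 in EVT of E18, 177 and 13.96 in E24, and 373 and 266 in E20. CKB, the brain type creatine kinase, had 852 and 222 in E18, 1945 and 342 in E24, and 1099 and 922 in E20. ACTG1, cytoplasmic actin, had 2834 and 2524, 2503 and 1844, and 3008 and 4839. In all 3 the E20 EVT level was the highest of the 3 embryos.

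Toward CTB, FBN1, fibrillin of the matrix, had 68.8 CPM in CTB and 1189 in EVT of E18, 89.1 and 1352 in E24, and 221 and 665 in E20. LRP1, an endocytic receptor for proteases bound to their inhibitors, had 38.005 and 119, 27.4 and 155, and 107 and 78.3. HSPB1, a small heat shock protein, had 404 and 719, 697 and 1145, and 987 and 421. RGS16, which ends G protein signals, had 113 and 282, 183 and 508, and 464 and 286, and FBXO32, a ubiquitin ligase subunit, had 0.146 and 24.5, 0 and 28.2, and 16.5 and 22.5. LRP1, HSPB1 and RGS16 thus stood higher in CTB than in EVT in E20 and the other way round in E18 and E24. In cells of cluster 19 the level of MYL3, a muscle myosin light chain, was 232 CPM, beside 20.5 in cluster 13, 30.4 in cluster 23 and 224 in CTB cluster 0.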
